A study of Homo sapiens with 6 samples.

Results

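The genes described here encode the SR proteins, the heterogeneous nuclear ribonucleoproteins (hnRNPs) and the kinases that phosphorylate SR proteins. They were taken from the table as protein-coding rows named SRSF followed by a number, TRA2A or TRA2B (14 SR protein genes), rows whose symbol starts with HNRNP (26 hnRNP genes), and CLK1 to CLK4, SRPK1 and SRPK2 (6 kinase genes). These 46 genes were among 58656 rows, and 43 of them passed the filter on low counts, with all SR proteins, all kinases and 23 hnRNPs among the 16481 genes tested. Polyadenylated RNA of MDA-MB-231, an established human triple-negative breast cancer cell line, was sequenced after 9 hours with mitocurcumin at 5 µM, a curcumin derivative targeted to mitochondria, and after 9 hours with its DMSO vehicle alone. Each group had 3 libraries, called biological replicates in the labels. Separate cultures are not mentioned there, so a p-value here measures only how these samples spread, which may be technical. All samples are of this single line, grown in the same medium with serum, and the labels name no other agent.

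SR proteins bind short exonic sequences through RNA recognition motifs and use a tail rich in arginine and serine to recruit the spliceosome, which mostly favours inclusion of the exon. Proteins of the hnRNP families coat nascent transcripts and often act against SR proteins at nearby sites, while also serving mRNA export, stability and translation. The cytoplasmic SRPK kinases phosphorylate SR proteins for entry into the nucleus, and the nuclear CLK kinases phosphorylate them further and release them from nuclear speckles. Many of these genes control their own mRNA through an exon whose inclusion sends the transcript to nonsense-mediated decay. The values here are sums over all transcripts of a gene, so such forms could not be told apart.

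Libraries held 23146822 to 29104681 estimated counts, and the members took 1.34% to 1.41% of them after mitocurcumin and 1.44% to 1.57% in controls. Levels are given as counts scaled to a library total of 1000000 (CPM), so they are shares of a library, and fewer cells and less RNA per cell cannot be told apart. The first principal component of log2 CPM separated the treatments and held 51.6% of the variance. Control replicate 1 lay apart from the other controls on the second component (16.2%), and mitocurcumin replicate 2 on the fourth (10.8%). The column heading of mitocurcumin replicate 2 also carries a sample number out of sequence with the others, for which no reason is given. VIM, CD44, KRT18, KRT8, AXL, CAV1 and MSN, genes known to be expressed in this line, had mean levels of 157 to 2340 CPM. Among genes listed as low or absent in it, ESR1 and PGR had at most 9.16 estimated counts in any library. ERBB2, also on that list, averaged 32.6 CPM after mitocurcumin and 41.6 CPM in controls and was lower (adjusted p = 0.0150). EPCAM averaged 20.1 and 22.3 CPM and CDH1 2.43 and 1.68 CPM in the same order, and neither passed the test. Of 12 markers of immune, endothelial, fat and nerve cells, 6 passed the count filter and 3 of these were lower (CD68, PECAM1 and SNAP25). None of the 12 was at 0 in all libraries. Their summed level was 89.4 to 111 CPM after mitocurcumin and 123 to 136 CPM in controls, mostly CD68, and their part in the results was not tested. The T cell gene CD3E had 2 counts over all libraries together.

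Changes of the splicing regulators were small, 20 of the 43 tested did not pass the test, and the estimates were negative in 20 of 23 hnRNPs, 8 of 14 SR proteins and 3 of 6 kinases. At an adjusted p under 0.05, 5 members were higher and 18 lower after mitocurcumin, so 53.5% of the 43 tested were called, against 32.5% of all genes tested. Abundant genes are called more often, and at a mean level of 50 CPM or more 19 of 35 members (54.3%) were called, against 51.2% of all 4741 such genes. For higher calls alone the share was 14.7% over all genes tested and 22.6% at that level, and for lower calls 17.8% and 28.6%. Of the 35 members at that level, 4 were higher and 15 lower. The median log2 fold change over the 43 members was -0.13, against -0.0059 over all genes tested. SRSF12 and CLK3 were the members whose estimate passed 1.5-fold, against 14.7% of all genes tested, and 0 members reached 2-fold. In 25 members (58.1%) treated and control values did not overlap, against 44.9% of all genes tested. That share, the 1.5-fold share and the median were not computed over genes at 50 CPM or more.

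**Figure D1:**
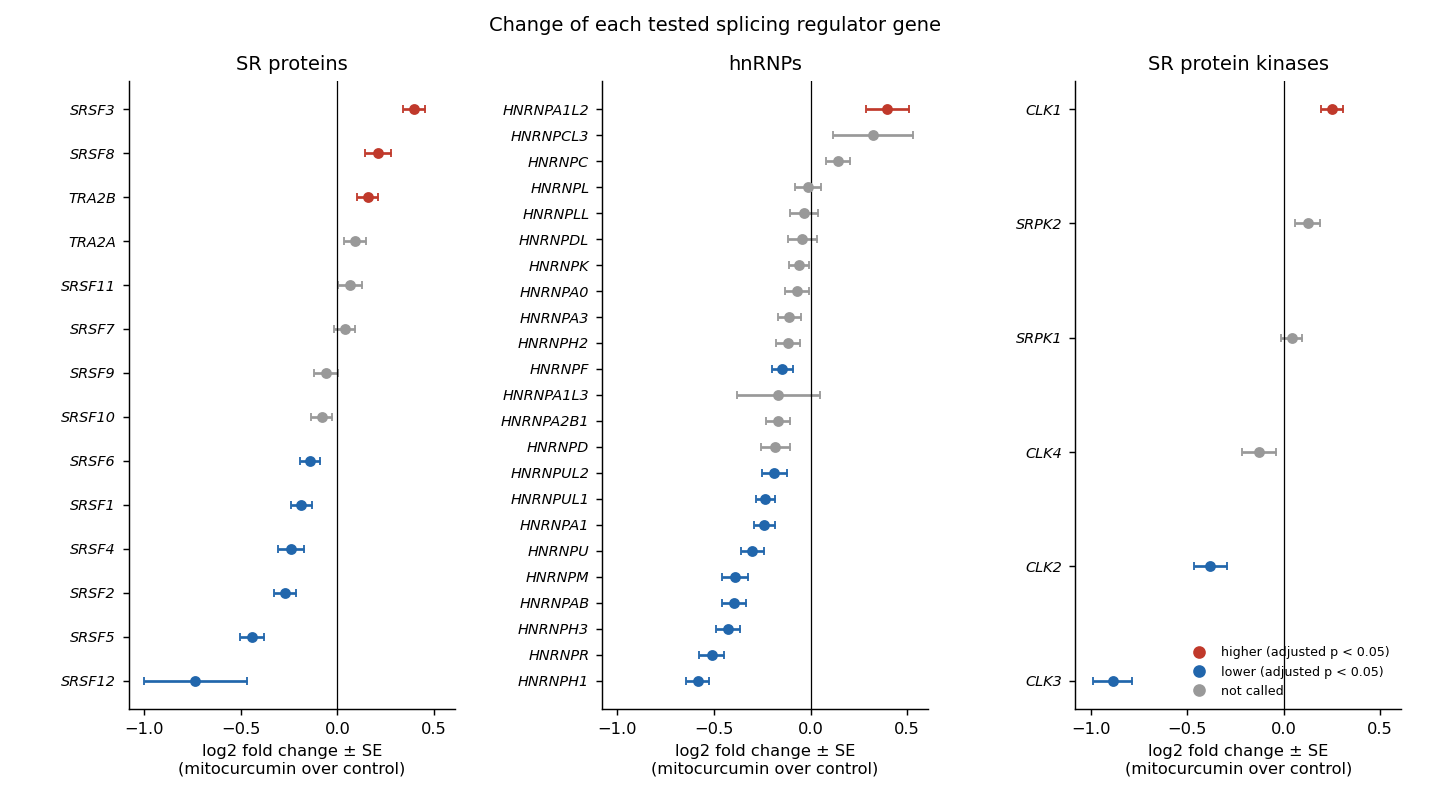
Log2 fold change of mitocurcumin over control with its SE for the 43 tested members, by class, 3 libraries a group. Red marks genes higher and blue genes lower at an adjusted p under 0.05. SR proteins spread to both sides of 0, 20 of 23 hnRNPs lie below it, and CLK1 and CLK3 lie on opposite sides.

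The SR protein, hnRNP and kinase genes that moved most with firm calls were SRSF3 and SRSF5, HNRNPH1, and CLK3. Their promoters, taken as 250 bases before to 50 after an annotated start, are shown. Which start sites these cells use was not tested. The sequences are from RefSeq on GRCh38.p14, each 5′ to 3′ on the gene's strand, with letters in capitals where a searched motif matched on either strand. SRSF3 (chr6:36594112-36594411, plus strand) is 62.3% G and C, with capitals at CCAAT boxes in both orientations and at a TATA box. SRSF5 (chr14:69766892-69767191, plus strand) has an ETS site, CCGGAAG. CLK3 (chr15:74608122-74608421, plus strand) has 2 CCAAT boxes, in opposite orientations. HNRNPH1 (chr5:179634735-179635034, minus strand) has 0 matches.
SRSF3 promoter: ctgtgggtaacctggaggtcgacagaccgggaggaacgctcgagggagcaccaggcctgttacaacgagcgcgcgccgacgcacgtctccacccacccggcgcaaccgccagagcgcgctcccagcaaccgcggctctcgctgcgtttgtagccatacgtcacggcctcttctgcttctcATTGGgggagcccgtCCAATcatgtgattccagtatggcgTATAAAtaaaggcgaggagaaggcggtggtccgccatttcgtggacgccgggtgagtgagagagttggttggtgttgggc
SRSF5 promoter: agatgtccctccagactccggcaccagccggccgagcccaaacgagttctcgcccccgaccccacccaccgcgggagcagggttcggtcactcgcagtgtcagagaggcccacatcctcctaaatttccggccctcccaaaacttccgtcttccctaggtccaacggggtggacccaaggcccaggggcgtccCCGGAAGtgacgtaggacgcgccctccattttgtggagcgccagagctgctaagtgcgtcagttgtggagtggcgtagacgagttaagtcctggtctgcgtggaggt
CLK3 promoter: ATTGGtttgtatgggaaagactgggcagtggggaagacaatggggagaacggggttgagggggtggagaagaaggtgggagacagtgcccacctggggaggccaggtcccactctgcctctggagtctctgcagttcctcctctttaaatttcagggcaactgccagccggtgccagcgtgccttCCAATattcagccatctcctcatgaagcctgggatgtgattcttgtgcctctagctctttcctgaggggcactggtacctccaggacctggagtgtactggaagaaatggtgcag
HNRNPH1 promoter: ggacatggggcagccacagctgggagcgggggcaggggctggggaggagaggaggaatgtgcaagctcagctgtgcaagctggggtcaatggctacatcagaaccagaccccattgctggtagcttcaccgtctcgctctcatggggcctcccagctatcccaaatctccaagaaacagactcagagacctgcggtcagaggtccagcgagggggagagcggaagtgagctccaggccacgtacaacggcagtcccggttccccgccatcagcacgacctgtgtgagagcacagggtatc

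Of the 46 members, 41 had a promoter in the RefSeq table. Over 34796 different promoters of the same length, searched on both strands, the heat shock element core GAANNTTC was found in 6.79%, and in 3 members, HNRNPA2B1, HNRNPC and SRSF8. The composite element of ATF4, TGATGNAA, was in 0 members against 3.63% of all promoters, and the cyclic AMP response element TGACGTCA in 0 against 1.84%. The MYC-type E-box CACGTG was in 9 members (22%) against 7.2%. The GC box GGGCGG was in 26 members (63.4%) against 44.9%, and CCAAT in 18 (43.9%) against 34.6%. The NRF1 site was in 6 members (14.6%) against 5.75%, CCGGAAG in 5 (12.2%) against 10.2%, TTTCCCGC of E2F in 3 (7.32%) against 1.63%, and TATAAA in 5 (12.2%) against 11.6%. None of the motifs contains another, and a match describes letters only. Each member was searched in a single promoter, while the comparison set could hold several of a gene. That set was not limited to tested or protein-coding genes, so the shares are not matched.

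Among the SR proteins, 3 were higher, 6 lower and 5 not called, a split in both directions with a median log2 fold change of -0.07. SRSF3, the smallest SR protein, which also serves mRNA export, rose, and SRSF5 fell by a similar amount on the log2 scale. The summed level of the 14 genes was 3129, 3087 and 3229 CPM after mitocurcumin and 3068, 3237 and 3252 CPM in controls. These sums overlapped between the groups. At a mean of 50 CPM or more, 8 of 13 SR proteins (61.5%) were called, against 51.2% of all such genes. Without mitocurcumin replicate 1, mitocurcumin replicate 2, control replicate 2 or control replicate 3 the lower SR proteins numbered 2 each time, and without mitocurcumin replicate 1, mitocurcumin replicate 3 or control replicate 2 the higher ones numbered 1. Over all genes tested, calls in the same settings numbered 2165 to 2557 lower, against 2938 with all libraries, and 1850 to 2184 higher, against 2425.

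SRSF3 (Entrez 6428, chromosome 6, 36594362 to 36605600, GRCh38) had 657, 606 and 670.3 CPM in mitocurcumin libraries, against 482, 478 and 509 CPM in control libraries. All treated values lay above all control values. The log2 fold change was 0.40 ± 0.06 (SE), with an adjusted p of 3.86e-05. SRSF8, which arose as a retrotransposed copy of SRSF2, had 60.8, 57.3 and 58.6 CPM in mitocurcumin libraries, against 50.3, 49.03 and 53.1 CPM in control libraries. Its change of 0.21 ± 0.07 (adjusted p = 0.0238) came without overlap. TRA2B, a relative of the Drosophila sex-determination factor transformer-2 that binds GAA-rich enhancers, had 262, 252 and 262 CPM in mitocurcumin libraries, against 218, 239 and 238 CPM in control libraries. It rose by 0.16 ± 0.05 (adjusted p = 0.0332), and its lowest treated value lay above its highest control value. The call of SRSF8 was lost without mitocurcumin replicate 1, mitocurcumin replicate 3 or control replicate 2, with adjusted p up to 0.0886. That of TRA2B was lost without any of these or control replicate 1, with adjusted p up to 0.120.

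SRSF5 (Entrez 6430, chromosome 14, 69767142 to 69772005) had 145, 152 and 159 CPM in mitocurcumin libraries, against 192, 207 and 222 CPM in control libraries. The groups stood well apart, with a log2 fold change of -0.44 ± 0.06 and an adjusted p of 3.06e-05. SRSF2, the speckle protein also called SC35, had 211, 205 and 222 CPM in mitocurcumin libraries, against 269, 244 and 257 CPM in control libraries. It fell by 0.27 ± 0.06 on the log2 scale (adjusted p = 0.00127), and overlaps MFSD11 on the opposite strand, which did not pass the test. SRSF4, an SR protein with a long arginine-serine tail, had 97.03, 92.4 and 104 CPM in mitocurcumin libraries, against 105, 122 and 121 CPM in control libraries. Its change was -0.24 ± 0.07 (adjusted p = 0.0120), with a highest treated value close to the lowest control value.

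SRSF1, the prototype of the family, had 496, 518 and 520.2 CPM in mitocurcumin libraries, against 549, 603 and 593 CPM in control libraries. It changed by -0.19 ± 0.05 (adjusted p = 0.0147), and every treated library was lower than every control. SRSF6 averaged 338 ± 4.35 CPM after mitocurcumin and 373 ± 8.22 CPM in controls (SD, n = 3 each), a change of -0.14 ± 0.05 (adjusted p = 0.0391). SRSF12, an SR-like protein that counteracts SR proteins in splicing, had 1.33, 1.45 and 1.73 CPM in mitocurcumin libraries, against 1.95, 3.33 and 2.26 CPM in control libraries. Its change of -0.74 ± 0.27 (adjusted p = 0.0441) was the largest of the class at by far its lowest level. The spread among its controls exceeded that among its treated libraries. The calls of SRSF1 and SRSF4 were lost without mitocurcumin replicate 1, mitocurcumin replicate 2, control replicate 2 or control replicate 3, with adjusted p up to 0.114 and 0.103. Those of SRSF6 and SRSF12 were lost without any single library other than control replicate 1, with adjusted p up to 0.189 and 0.251. Over all 20 alternatives SRSF6 lost its call in 13, among them RLE and upper-quartile scaling, both other filters, protein-coding rows and unrounded counts, and SRSF12 in 9, among them upper-quartile scaling, DESeq2 and limma voom. SRSF2, SRSF3 and SRSF5 passed with each library left out.

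The other SR proteins did not pass the test. SRSF7, the closest relative of SRSF3, averaged 113 ± 2.30 CPM after mitocurcumin and 110.3 ± 1.73 CPM in controls, a log2 fold change of 0.04 ± 0.05. TRA2A, the paralog of TRA2B, changed by 0.09 ± 0.06, and its groups did not overlap. SRSF10, a splicing repressor when dephosphorylated in heat-shocked cells, changed by -0.08 ± 0.05, and was called only without control replicate 1 (adjusted p = 0.0356). SRSF9 and SRSF11 changed by -0.06 ± 0.06 and 0.07 ± 0.06. SRSF9 overlaps GATC, a gene of similar count, on the opposite strand.

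**Figure D2:**
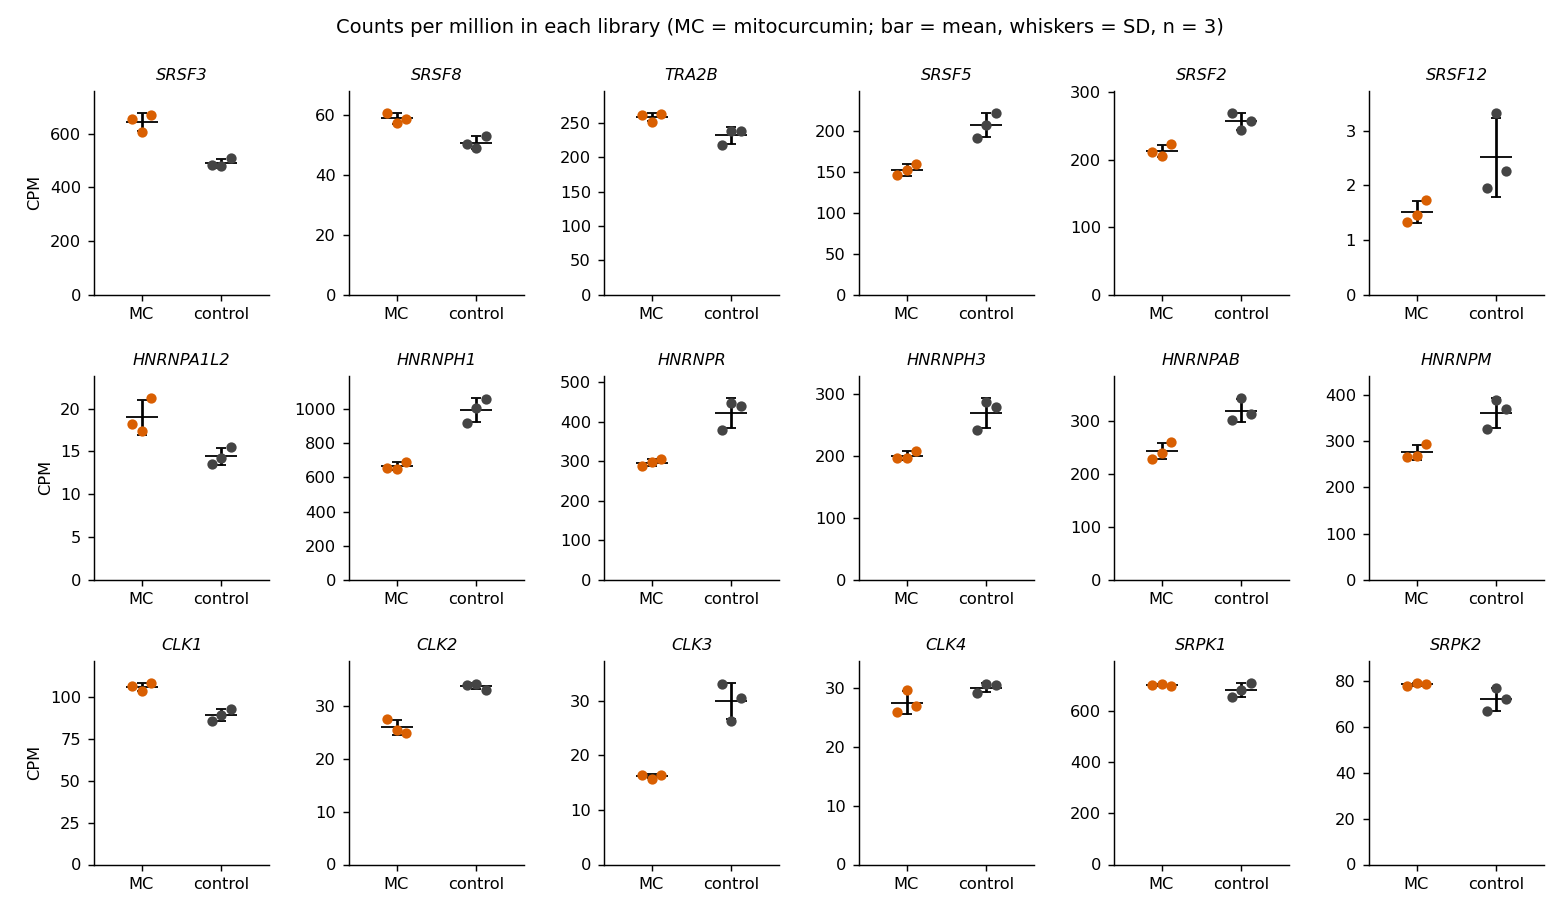
CPM in each library for 18 members, with mitocurcumin (MC) left of control, the mean as a bar and SD as whiskers (n = 3 each), and each axis starting at 0. In HNRNPH1 the treated libraries lie between 649 and 693 CPM and the controls between 922 and 1062 CPM, and CLK3 is the gene with the widest relative gap.

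Among the hnRNPs, 10 of 23 tested genes were lower and 1 higher, with a median log2 fold change of -0.17, and 20 of the 23 estimates were negative. Lower genes included HNRNPH1 and HNRNPH3, which bind runs of G, HNRNPR, HNRNPAB and HNRNPM. The summed level of the tested hnRNPs was 9376, 9464 and 9984 CPM after mitocurcumin and 10387, 11600.4 and 11391 CPM in controls, a mean lower by 13.6%. Control replicate 1 was the lowest control in all 10 lower hnRNPs and in 18 of 23 tested, against 39.1% of all genes tested. Without it 15 hnRNPs were lower and 1 higher, and without it and mitocurcumin replicate 2 there were 12 and 1. Over all genes tested, lower calls numbered 3216 and 2856 in the same settings, against 2938 with all libraries. Higher calls numbered 2872 and 2785, against 2425. At a mean of 50 CPM or more, 10 of 19 hnRNPs were lower, against 28.6% of all genes at that level.

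HNRNPH1 (Entrez 3187, chromosome 5, 179614178 to 179634784) had 655, 649 and 693 CPM in mitocurcumin libraries, against 922, 1009 and 1062 CPM in control libraries. The treated libraries lay close together and far below every control. Its log2 fold change of -0.58 ± 0.06 (adjusted p = 1.2e-06) was the largest among the hnRNPs. HNRNPR, a close relative of SYNCRIP, had 288, 298 and 305 CPM in mitocurcumin libraries, against 380, 449 and 441 CPM in control libraries. It fell by 0.51 ± 0.06 on the log2 scale (adjusted p = 9.76e-06), with control replicate 1 nearest to the treated libraries. HNRNPH3 had 196, 196 and 208 CPM in mitocurcumin libraries, against 241, 287 and 278 CPM in control libraries. This gave -0.43 ± 0.06 (adjusted p = 6.85e-05), again without overlap. HNRNPH3 overlaps RUFY2 on the opposite strand, which did not pass the test.

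HNRNPAB, an hnRNP of the A/B family, had 229, 241 and 260.4 CPM in mitocurcumin libraries, against 302, 345 and 314 CPM in control libraries. HNRNPM, a regulator of alternative splicing, had 266, 268 and 295 CPM in mitocurcumin libraries, against 327, 389.6 and 371 CPM in control libraries. In both genes all treated values were below all control values. Their changes were -0.40 ± 0.06 and -0.39 ± 0.07, with adjusted p-values of 1.19e-04 and 2.37e-04. HNRNPU, which binds chromatin and nuclear RNA, changed by -0.30 ± 0.06 (adjusted p = 0.00103), HNRNPA1, known to oppose SRSF1 in the choice of 5′ splice sites, by -0.24 ± 0.05 (adjusted p = 0.00223), and HNRNPUL1, a relative of HNRNPU, by -0.23 ± 0.05 (adjusted p = 0.00195). HNRNPUL2 changed by -0.19 ± 0.06 (adjusted p = 0.0317) with overlapping groups, and HNRNPF by -0.15 ± 0.05 with an adjusted p just under the threshold. HNRNPF lost its call in 15 of 20 alternatives, among them each library left out except control replicate 1, with adjusted p up to 0.274. HNRNPUL2 lost it in 7, among them mitocurcumin replicate 1, mitocurcumin replicate 2, control replicate 2 or control replicate 3 left out, with adjusted p up to 0.189. The other 8 lower hnRNPs passed in all 20.

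HNRNPA1L2, a gene that resembles a retrotransposed copy of HNRNPA1, was the one higher hnRNP. It had 18.2, 17.4 and 21.3 CPM in mitocurcumin libraries, against 13.6, 14.2 and 15.5 CPM in control libraries. The change was 0.40 ± 0.11 (adjusted p = 0.0113), and it was lost without mitocurcumin replicate 3, the highest treated library (adjusted p = 0.0905). Its estimate had the opposite sign from that of HNRNPA1, with which it may share reads. The table had 74 rows of HNRNPA1 pseudogenes, of which 2 held any counts, together 1.31% of those of HNRNPA1. Over all members, 5 of 141 pseudogene rows held counts.

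Abundant hnRNPs were also among those not called. HNRNPK, which binds C-rich RNA, averaged 801 ± 19.0 CPM after mitocurcumin and 834 ± 6.80 CPM in controls, a change of -0.06 ± 0.05 (adjusted p = 0.418). It overlaps RMI1 on the opposite strand, which was lower (-0.48, adjusted p = 8.23e-05) at far fewer counts, and strand use in the counting is not known. HNRNPC, which binds runs of U, had the largest positive estimate of the abundant hnRNPs, 0.14 ± 0.06 (adjusted p = 0.102), with overlapping groups. HNRNPL, which binds CA repeats, and its paralog HNRNPLL changed by -0.012 ± 0.07 and -0.03 ± 0.07. HNRNPA2B1 had 1269, 1276 and 1389 CPM in mitocurcumin libraries, against 1341, 1586 and 1495 CPM in control libraries. It missed the threshold narrowly at -0.17 ± 0.06 (adjusted p = 0.0520) and passed in 8 of 20 alternatives, among them without control replicate 1 (adjusted p = 1.45e-04) and without mitocurcumin replicate 3 (adjusted p = 0.0472). HNRNPD, the mRNA decay factor AUF1, changed by -0.18 ± 0.08 (adjusted p = 0.0834) and passed without control replicate 1 (adjusted p = 2.25e-05), and without it and mitocurcumin replicate 2.

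HNRNPA3, HNRNPDL and HNRNPH2 changed by -0.11 ± 0.06, -0.04 ± 0.07 and -0.11 ± 0.06 and were called only without control replicate 1. HNRNPH2 lies within the readthrough row RPL36A-HNRNPH2, on the same strand, which had a mean of 4080 counts against 2425 for HNRNPH2, so its value is uncertain. HNRNPA0 changed by -0.07 ± 0.06. The copies HNRNPCL3 and HNRNPA1L3 averaged 3.18 and 2.35 CPM after mitocurcumin and 2.54 and 2.64 CPM in controls. They changed by 0.32 ± 0.21 and -0.17 ± 0.21, with overlapping groups. The other HNRNPC-like copies HNRNPCL1, HNRNPCL2 and HNRNPCL4 had 0 to 6 estimated counts in every library and were not tested.

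The kinases of SR proteins moved in opposite directions within the CLK family. CLK1 rose, CLK2 and CLK3 fell, and CLK4, SRPK1 and SRPK2 did not pass the test, with a median log2 fold change of -0.04. So 3 of 6 kinases (50%) were called, against 32.5% of all genes tested. At a mean of 50 CPM or more, 1 of 3 kinases (33.3%) was called, against 51.2% of all such genes. CLK3 (Entrez 1198, chromosome 15, 74608372 to 74630201) had 16.4, 15.8 and 16.5 CPM in mitocurcumin libraries, against 33.1, 26.4 and 30.5 CPM in control libraries. The treated values were tight and lower than every control by a wide margin. Its log2 fold change of -0.89 ± 0.10 (adjusted p = 4.98e-06) was the largest of all 43 tested members and stood at percentile 2.26 of all genes tested. CLK2, a dual-specificity kinase of the same family, had 27.6, 25.4 and 25.01 CPM in mitocurcumin libraries, against 34.1, 34.3 and 33.1 CPM in control libraries. It fell by 0.38 ± 0.09 on the log2 scale (adjusted p = 0.00234), again without overlap.

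CLK1 (Entrez 1195, chromosome 2, 200853009 to 200864658), part of whose RNA is held in the nucleus with retained introns and spliced on stress, had 107, 104 and 108 CPM in mitocurcumin libraries, against 85.6, 89.6 and 93.05 CPM in control libraries. All treated values exceeded all controls, with a change of 0.25 ± 0.06 (adjusted p = 0.00286). CLK4, the closest paralog of CLK1, had 25.8, 29.6 and 26.9 CPM in mitocurcumin libraries, against 29.1, 30.6 and 30.4 CPM in control libraries. These values overlapped, at -0.13 ± 0.09 (adjusted p = 0.293). SRPK1, a cytoplasmic kinase that primes SR proteins for nuclear import, had 699.7, 705 and 696 CPM in mitocurcumin libraries, against 653, 681 and 708 CPM in control libraries. SRPK2 had 77.8, 79.1 and 78.9 CPM in mitocurcumin libraries, against 66.99, 76.99 and 72.4 CPM in control libraries. Neither passed, at 0.04 ± 0.05 (adjusted p = 0.604) and 0.12 ± 0.06 (adjusted p = 0.164). The calls of CLK1, CLK2 and CLK3 passed in all 20 alternatives.

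Levels between genes were compared as CPM per kb of exon, over the union of exons of protein-coding transcripts in GENCODE release 29 on GRCh38, which gave a length for 42 of the 43 genes. After mitocurcumin the highest levels were those of HNRNPK (263 ± 6.25 CPM per kb), HNRNPA1 (251 ± 10.8), HNRNPA2B1 (221 ± 11.3) and HNRNPH1 (179 ± 6.34). In controls the order was HNRNPA1 (296 ± 8.32), HNRNPK (274 ± 2.23), HNRNPH1 (268 ± 19.0) and HNRNPA2B1 (248 ± 20.9) (SD, n = 3). Among controls the values of HNRNPH1 overlapped those of HNRNPK and of HNRNPA2B1, and after mitocurcumin those of HNRNPK overlapped those of HNRNPA1, and those of HNRNPH1 overlapped those of HNRNPD (176 ± 8.18 CPM per kb), the next in order. SRSF1 was the highest SR protein in both groups, with 160 ± 4.30 CPM per kb after mitocurcumin and 182 ± 8.99 in controls. SRSF3 followed at 147 ± 7.68 CPM per kb after mitocurcumin and 112 ± 3.89 in controls, so that it lay closer to SRSF1 after treatment and ranked 8 of 42, against 13 in controls. SRPK1 was the highest kinase, at 152 ± 0.964 CPM per kb after mitocurcumin and 147 ± 5.95 in controls. CLK1 was the highest of the CLK genes, at 43.3, 42.0 and 43.8 CPM per kb in mitocurcumin libraries and 34.6, 36.2 and 37.6 CPM per kb in control libraries. SRSF12 was the lowest gene in both groups, at 0.418 ± 0.0569 CPM per kb after mitocurcumin and 0.698 ± 0.200 in controls.

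**Figure D3:**
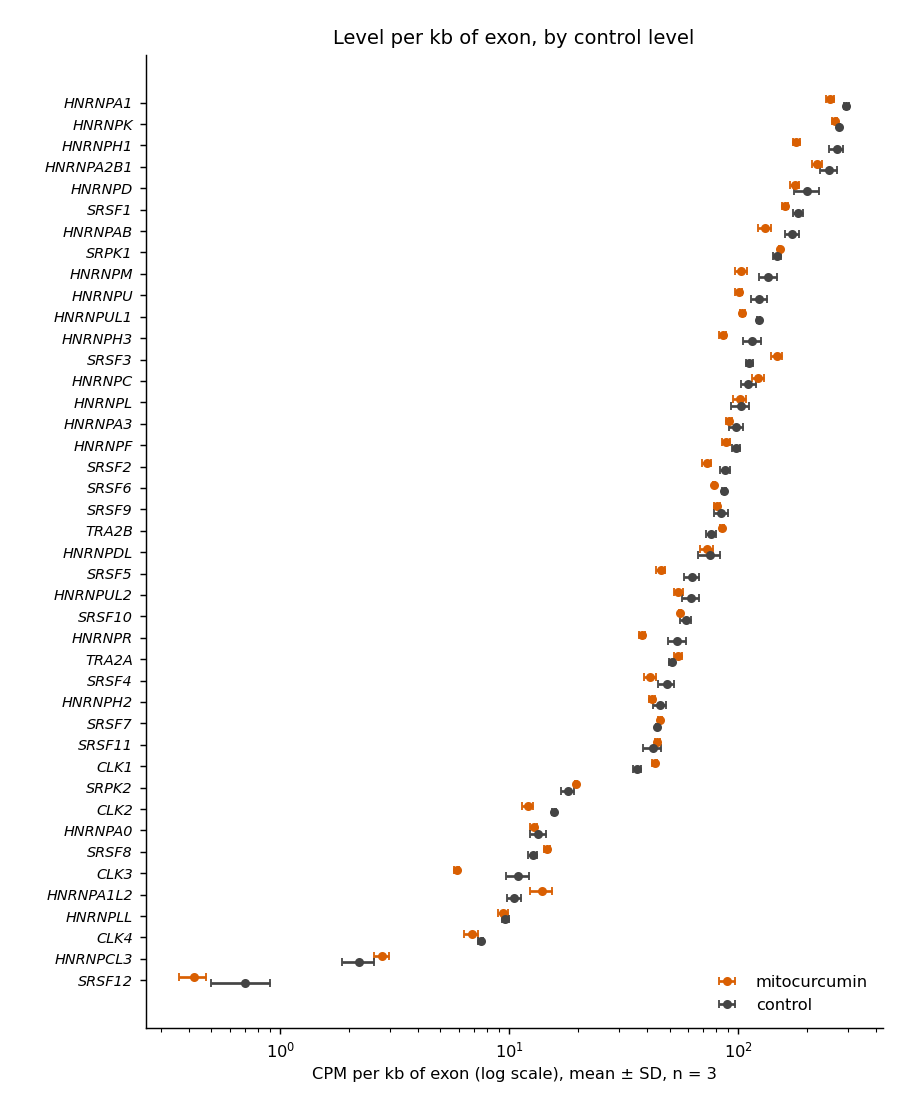
Mean CPM per kb of exon (log axis) with SD (n = 3) for 42 members in mitocurcumin (orange) and control (grey) libraries, ordered by the control level. Levels span from under 1 for SRSF12 to 296 for HNRNPA1 in controls. SRSF3 lies to the right of its control level, and HNRNPH1 and CLK3 lie to the left of theirs.

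Ratios between members within a library were computed for 14 pairs picked after their values were seen, and are given as a description without a test. The ratio of CLK1 to CLK3, on the per-kb scale, was 7.25, 7.33 and 7.33 in mitocurcumin libraries, against 2.88, 3.78 and 3.39 in control libraries. That of SRSF3 to SRSF5 was 3.41, 3.02 and 3.18 in mitocurcumin libraries, against 1.90, 1.74 and 1.74 in control libraries. HNRNPH1 over HNRNPH2, the less certain count, was 4.28, 4.24 and 4.29 in mitocurcumin libraries, against 5.90, 5.69 and 6.15 in control libraries. HNRNPC over HNRNPU was 1.16, 1.27 and 1.22 in mitocurcumin libraries, against 0.909, 0.917 and 0.861 in control libraries. These 4 ratios did not overlap between the groups. For CLK1 to CLK3 and SRSF3 to SRSF5 this follows from the genes themselves, which moved in opposite directions, each without overlap. TRA2B over TRA2A averaged 1.56 ± 0.0561 after mitocurcumin and 1.48 ± 0.0799 in controls, and SRPK1 over SRPK2 averaged 7.74 ± 0.0758 and 8.22 ± 0.455 in the same order (SD, n = 3). Both of these overlapped between the groups, and the remaining pairs are not reported here.

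**Figure D4:**
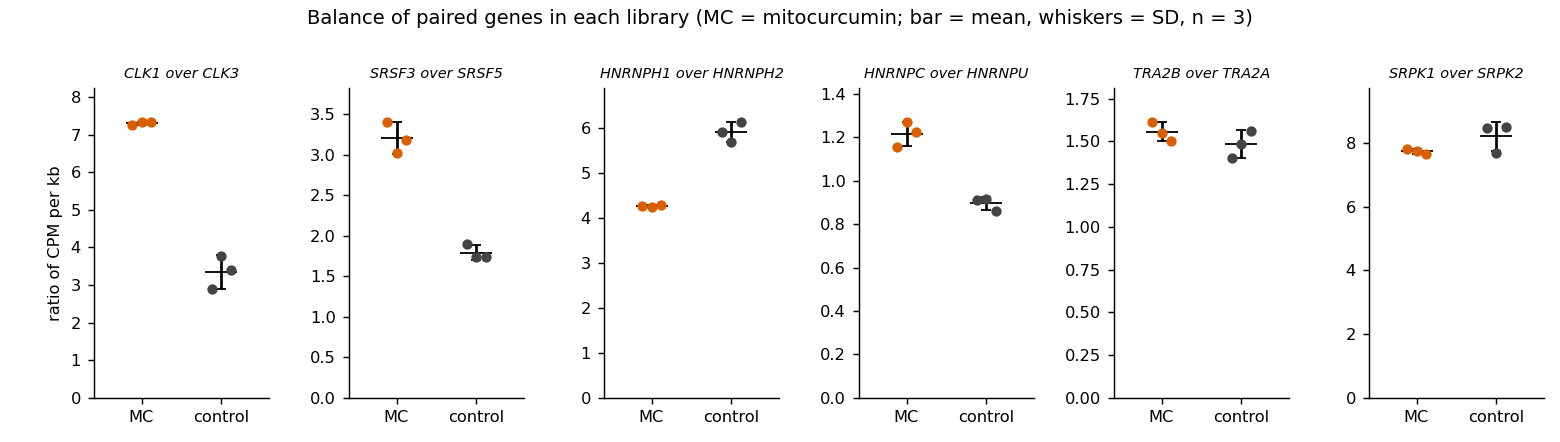
Ratio of CPM per kb for 6 pairs of members in each library, mitocurcumin (MC) left of control, with mean and SD (n = 3 each) and axes from 0. The ratio of CLK1 to CLK3 lies above 7 in all mitocurcumin libraries and below 4 in all controls, while the pairs TRA2B and TRA2A, and SRPK1 and SRPK2, overlap.

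Genes that act with these regulators were described from lists. Over 131 tested genes of the 5 lists, 15 were higher and 40 lower, and without mitocurcumin replicate 2 the lower ones numbered 26. Lower calls over all genes tested then numbered 2165, against 2938 with all libraries. Over all genes tested 14.7% were higher and 17.8% lower, and at a mean of 50 CPM or more 22.6% and 28.6%. Called in either direction were 34.1% of core spliceosome genes, 56.1% of other splicing regulators and 40% of SR-related genes. For nonsense-mediated decay and the minor spliceosome it was 33.3% each. The share was 32.5% over all genes tested and 51.2% at 50 CPM or more. Core spliceosome genes were lower in 13 and higher in 1 of 41, with a median log2 fold change of -0.10. SNRNP70, a U1 protein that SR proteins contact at the 5′ splice site, averaged 73.2 ± 2.90 CPM after mitocurcumin and 113 ± 8.61 CPM in controls, a change of -0.63 ± 0.07 (adjusted p = 1.72e-06). DDX23, a helicase that acts in the loading of the U4/U6.U5 particle, changed by -0.60 ± 0.06. SNRPA, another U1 protein, was the higher gene, at 0.46 ± 0.08 (adjusted p = 2.16e-04). Without control replicate 1 the list had 19 lower and 3 higher genes, while lower calls over all genes tested numbered 3216 and higher ones 2872.

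Other splicing regulators were lower in 17 and higher in 6 of 41, with a median of -0.13. RBMX, also known as hnRNP G, averaged 199.9 ± 1.87 CPM after mitocurcumin and 368 ± 19.3 CPM in controls, a change of -0.88 ± 0.05 (adjusted p = 3.07e-09) and of the size of that of CLK3. PSPC1, a paraspeckle protein, changed by -0.65 ± 0.06. MBNL2, a muscleblind protein, rose by 0.63 ± 0.05 (adjusted p = 1.73e-07), and RBM39, an SR-like coactivator, by 0.42 ± 0.06 (adjusted p = 2.45e-05). SR-related proteins and genes for SR protein handling were lower in 7 and higher in 3 of 25, with a median of -0.11. PNN and ACIN1, of the exon junction machinery, changed by -0.45 ± 0.08 and -0.41 ± 0.05, while DYRK1A, another kinase of SR proteins, rose by 0.27 ± 0.06 and SCAF8 by 0.23 ± 0.05.

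Genes of nonsense-mediated decay were higher in 4 and lower in 1 of 15, with a median of 0.09. SMG1, the kinase that phosphorylates UPF1, averaged 391 ± 19.5 CPM after mitocurcumin and 303 ± 13.6 CPM in controls, a rise of 0.37 ± 0.06 (adjusted p = 9.12e-05), and RBM8A, an exon junction protein, changed by -0.28 ± 0.05. Minor spliceosome genes were higher in 1 and lower in 2 of 9, with SNRNP48 at 0.22 ± 0.07, SNRNP25 at -0.44 ± 0.14 and SNRNP35 at -0.36 ± 0.11. The call of SNRNP48 was lost without mitocurcumin replicate 2 or 3, with adjusted p up to 0.106. That of SNRNP25 was lost without mitocurcumin replicate 1 or 2 or control replicate 1 or 3, with adjusted p up to 0.141, and that of SNRNP35 without mitocurcumin replicate 1 or control replicate 2 or 3, with adjusted p up to 0.132. MALAT1, a nuclear RNA that binds SR proteins, changed by 0.14 ± 0.26 (adjusted p = 0.743), and NEAT1, the RNA scaffold of paraspeckles, rose by 0.65 ± 0.07 (adjusted p = 2.38e-06).

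**Figure D5:**
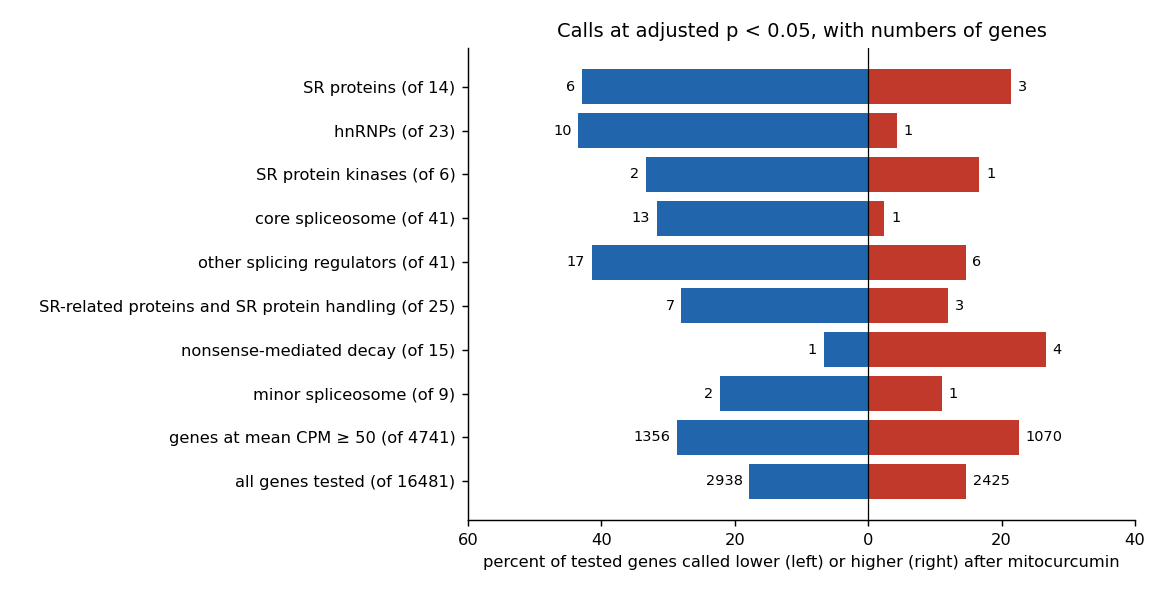
Percent of tested genes called lower (blue, left) or higher (red, right) after mitocurcumin at an adjusted p under 0.05, with the number of genes at each bar. The 3 member classes stand at the top, then the 5 neighbouring lists, and the shares over genes at 50 CPM or more (28.6% lower, 22.6% higher) and over all genes tested (17.8% lower, 14.7% higher) at the bottom.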

How the data were processed

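RNA sequencing of 6 libraries was analysed. The first deposited table holds estimated counts per gene that are not scaled between libraries. That unit was read from the values, since 20.4% to 21.7% of those above 0 were whole within 1e-06. The second holds log2 values, which for counts above a factor set per library equal the log2 of the deposited estimated count over that factor, and which are 0 for lower counts. Reads were processed on GRCh38 according to the submitters' processing notes, with RefSeq genes per the file headers. Libraries were stranded per the labels' protocols. How reads were aligned and counted, and with what use of strand, is not given in the sources used here.

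Columns were matched to samples by treatment and replicate number. After rounding, the estimated counts were fitted in R 4.3.3 with edgeR 4.0.16 over all 16481 genes kept by filterByExpr (minimum count 10, minimum total 15), with TMM scaling, robust quasi-likelihood F-tests, group as the only term and two-sided p-values adjusted by Benjamini-Hochberg over all genes. The SE is the fitted change over the square root of F. CPM used TMM-scaled totals. Fold changes are mitocurcumin over control.

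Values per library are given for all kinases and, in the other classes, for the 5 largest called rises and falls; HNRNPA2B1 was added after its values were seen. From each neighbouring list, the 2 largest called rises and falls at a mean of 5 CPM or more are named, with MALAT1 and NEAT1 whatever their values; some listed genes are not reported here. Members and lists were chosen with earlier results of these data known. Replicates of a group differed by more than counting noise (chi-square per gene 5.31 to 18.7), so none was counted as a duplicate. The fit was also run on counts simulated with dispersions fitted to these data, whose outcome is not reported here and is not used as support. Alternatives were other scalings, filters and thresholds, DESeq2 1.42.0, limma 3.58.1 (voom, and on the deposited log2 values), a replicate term, protein-coding rows, unrounded counts, pseudogene counts added to members, and libraries left out.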

Additional observations from a re-analysis of the deposited data

How the results depend on the processing

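Of the 23 called members, 14 kept their call in all 20 alternatives, and 14 of the 20 members not called stayed uncalled in all of them; 0 called members changed direction. At an adjusted p under 0.01 by edgeR, 1 SR protein was higher and 2 lower, 0 hnRNPs higher and 8 lower, and 1 kinase higher and 2 lower. Over all genes tested, 1636 were higher and 2018 lower at that threshold. The unadjusted p of HNRNPA1L2 by edgeR was 0.00256 and that of HNRNPC 0.0401. Leaving out 1 library at a time gave 1 to 3 higher and 2 to 7 lower SR proteins, 0 to 1 higher and 8 to 15 lower hnRNPs, and 1 higher and 2 lower kinases each time. Calls over all genes tested also moved, to 1850 to 2872 higher and 2165 to 3216 lower, against 2425 and 2938 with all libraries. The highest counts of lower genes came without control replicate 1. SR proteins lower numbered 2 without mitocurcumin replicate 1, mitocurcumin replicate 2, control replicate 2 or control replicate 3, and higher ones 1 without mitocurcumin replicate 1, mitocurcumin replicate 3 or control replicate 2. The median log2 fold change of the kinases was -0.016 with upper-quartile scaling, -0.07 to -0.010 with 1 library left out, and -0.090 without control replicate 1 and mitocurcumin replicate 2 together, a setting chosen after seeing the data. The neighbouring lists had 26 to 48 lower genes with 1 library left out, with 26 without mitocurcumin replicate 2. The cause of these differences between settings was not tested.

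The replicate numbers were not shown to pair the samples: deviations from the group means correlated at 0.101, 0.017 and -0.0101 for same-numbered libraries. With the replicate block, 5 SR proteins and 12 hnRNPs were lower, against 6 and 10 without it; SRSF6 was no longer called (adjusted p = 0.0516), and HNRNPA2B1 (adjusted p = 0.0321) and HNRNPD (adjusted p = 0.0289) were called. Over all genes, 2643 were higher and 3163 lower with the block, against 2425 and 2938. Depth limits SRSF12, HNRNPCL3 and HNRNPA1L3, all under 4 CPM.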
